A study of Mus musculus with 22 samples.

Results

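Large stretches of the mouse genome that were never called as lamina-associated domain (LAD) in primary mouse embryonic fibroblasts (MEFs) were collected from 11 DamID-seq interval lists. They were defined by the measured lists themselves: a region was a run of at least 200 kb on chromosomes 1 to 19 that held no deposited interval of any list, between the first and the last base seen in any list on that chromosome. The rule gave 342 regions out of 16758 never-called runs of any length. Because the calls chose the regions, their number, length and position, and the distance from their edges to the nearest interval, are descriptions and carry no test.

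LADs are long stretches of mostly silent, gene-poor chromatin that contact the nuclear lamina, the meshwork of lamin filaments under the inner nuclear membrane. The chromatin between them, called non-LAD or inter-LAD, is richer in active genes and extends into the nucleoplasm. In DamID a bacterial adenine methyltransferase (Dam) is fused to lamin B1, a lamina protein, so that DNA near the lamina gains methylated adenines, and Dam alone serves as the reference for accessible DNA.

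The cells were primary MEFs of the C57bl/6 strain, taken from e13.5 embryos and kept for 5 passages at most. There were 22 libraries, forming 11 pairs of Dam-lamin B1 and Dam-only, and each pair gave 1 list. WT cells, untreated and without a control hairpin, gave 3 lists, from the embryos labelled 1.5, 1.8 and x17. Cells with short hairpins against lamins A and C (shAC) gave 2 lists, from embryos 1.5 and x17, with Dam virus added 4 days after the hairpin virus and harvest 48 h after that. The remaining 6 lists came from embryos 1.8 and x17 under 3 drugs, given for 18 to 24 h before the Dam virus, with harvest at 60 h, counted from a step that the labels do not name. BIX01294 inhibits the histone methyltransferase G9a, DZNep lowers histone methylation through EZH2, and TSA (trichostatin A) inhibits histone deacetylases. The lists hold positions only, in mm9, so the sequencing depth behind a call is unknown, and no list could be weighted by it. On the autosomes the lists covered 55.3% to 64.3% of the span with LADs, and intervals under 10 kb made up 16.6% of a list in TSA embryo x17, 22.5% in TSA embryo 1.8 and 26.1% to 34.3% in the other 9.

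The 342 regions summed to 102.6 Mb, which was 4.25% of the 2415 Mb autosomal span. They were 2.04% of all never-called runs but held 17.6% of the 583 Mb that was never called. Most never-called runs were short, with a median of 17.7 kb, and 27.3% of them were under 10 kb. The regions had a median length of 270.0 kb, with quartiles at 228 and 336 kb. There were 137 regions of 200 to 250 kb, 88 of 250 to 300 kb, 74 of 300 to 400 kb, 24 of 400 to 500 kb, and 19 of 500 kb or more. The 10 longest summed to 6.91 Mb, or 6.74% of the total.

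The length limit fell within a dense part of the distribution, since 882 further runs of 100 to 200 kb held 122 Mb. Just inside it lay chr10:70422023-70622263 (200.2 kb), chr9:65478485-65678779 (200.3 kb) and chr7:25674740-25875041 (200.3 kb). Just outside it lay chr6:87088882-87288767 (199.9 kb), chr12:80697640-80897362 (199.7 kb) and chr14:21407418-21606602 (199.2 kb).

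Never-called regions were found on every autosome, at unequal shares. Chromosome 11 had the highest share, with 28 regions over 6.98% of its span, followed by chromosome 4 with 28 regions over 5.95% and chromosome 17 with 17 regions over 5.75%. Chromosome 2 held the most regions, 32, which summed to 9.50 Mb. The lowest shares were on chromosome 13, where 8 regions took up 1.88%, chromosome 14 with 2.11% and chromosome 18 with 2.46%. Chromosome 1, whose span is the longest, held 19 regions over 2.90%. The longest region of a chromosome ran from 326 kb on chromosome 19 to 818 kb on chromosome 2.

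**Figure D1:**
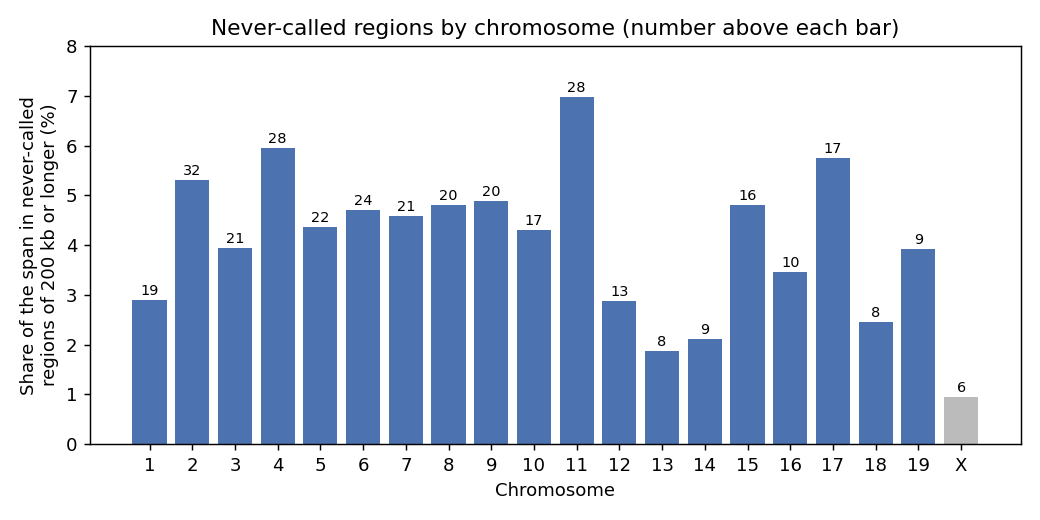
Bars give the percentage of each chromosome's span that lies in never-called regions of 200 kb or longer, with the number of regions above each bar. Chromosome 11 stands at 6.98% and chromosome 13 at 1.88%, and chromosome X (grey), which was not among the 342 regions, at 0.945%.

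The share had little relation to chromosome length, and it leaned against LAD content only loosely. Across the 19 autosomes the share of span in regions had Pearson's r = 0.110 and Spearman's rho = 0.212 with span length, and r = -0.509 and rho = -0.407 with the mean WT LAD coverage. These are descriptions across chromosomes, which share all libraries. Chromosome 11 had the lowest LAD coverage in WT, 48.7% ± 3.35 (SD, n = 3). Chromosome 13 departed from the relation, with WT LAD coverage of 57.4% ± 3.55 (SD, n = 3) and the smallest share of regions. The X chromosome, treated by the same rule, had 6 regions over 0.945% of its span, below each autosome, and WT LAD coverage of 79.0% ± 4.31 (SD, n = 3).

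Mouse chromosomes carry the centromere at one end, where coordinates start. The regions lay more often toward the other, telomeric end. When each span was divided into 10 equal parts, the first held 1.47% of its bases in regions and the last 6.60%, with 14 and 46 region midpoints. All never-called runs together rose in the same direction, from 16.8% of the first part to 27.9% of the last. WT LAD coverage ran the opposite way, from 67.9% ± 3.21 (SD, n = 3) in the first part to 55.3% ± 2.79 in the last. In all, 197 of 342 midpoints lay beyond the middle of their span. This was not shared by every chromosome: 11 of 19 had more than 50% of their region bases in the distal part. Chromosome 12 had 92.9% there and chromosome 11 had 83.1%, whereas chromosome 13 had 10.2% and chromosome 19 had 13.2%. Longer regions sat farther out, with a mean midpoint at 52.8% of the span for the 225 regions of 200 to 300 kb, 59.5% for the 98 of 300 to 500 kb and 67.8% for the 19 of 500 kb or more.

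**Figure D2:**
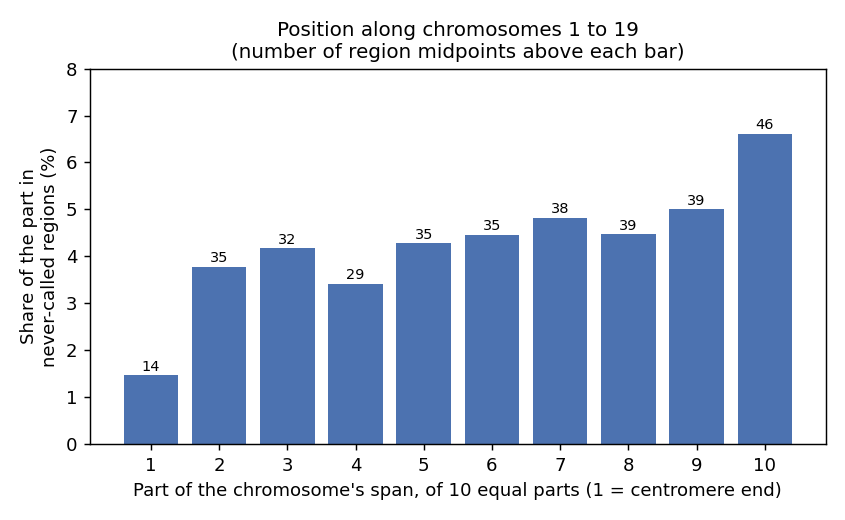
Each span of chromosomes 1 to 19 is cut into 10 equal parts (x axis, 1 at the centromere end), bars give the percentage of each part, pooled over chromosomes, that lies in never-called regions, and the number above each bar counts region midpoints. The share is 1.47% in the first part and 6.60% in the last, and stays between 3.41% and 5.00% in the others.

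At the ends themselves, the first 10 Mb of the spans held 16 regions over 2.08% of their bases and the last 10 Mb held 35 over 6.22%. The region nearest to the start of a span was chr5:3327566-3596041, 328 kb in, and the nearest to an end was chr7:152228649-152443128, 78.8 kb from it. Whether unmappable DNA or assembly gaps near the centromere contributed was not tested.

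The regions were partly clustered. The median separation of 323 neighbouring pairs was 2.14 Mb, yet 45 pairs, made up of 83 regions, were under 100 kb apart. In 22 pairs the sequence between the neighbours was called in 1 list only. The closest were chr2:117467723-117700266 and chr2:117700500-117958216, parted by 0.233 kb of a single list, so that a single call decided whether they counted as 1 region. The densest 5 Mb was chr11:97415835-102415834, in which 7 regions held 2.02 Mb, or 40.4% of the window.

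The longest region, chr2:167116907-167935162, spanned 818 kb toward the distal end of chromosome 2. The gap that each list left around it varied widely, from 967 to 2667 kb. It measured 2238, 2374 and 1069 kb in the WT lists of embryos 1.5, 1.8 and x17, and 1757 and 2667 kb in the shAC lists of embryos 1.5 and x17. Under BIX01294 it measured 1298 kb in embryo 1.8 and 1415 kb in embryo x17, under DZNep 1458 and 967 kb, and under TSA 2193 and 1035 kb. The treatments overlapped, and the WT list of embryo x17 was nearer to the TSA list of the same embryo than to the other WT lists. DZNep x17 alone set the left edge, with an interval of 10.4 kb, and shAC x17 alone set the right edge, with an interval of 0.574 kb.

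At chr10:79864079-80674443 (810 kb) the gaps of single lists ran from 868 kb in BIX01294 embryo 1.8 to 2199 kb in WT embryo 1.5, with a median of 1995 kb. The intervals beyond its right edge had a median over lists of 847 kb, against 1.72 kb beyond its left edge. Some on the right were short: 3.18 kb in shAC embryo 1.5, which set that edge, 5.92 kb in BIX01294 embryo 1.8 and 1.73 kb in DZNep embryo 1.8. At chr9:63396482-64117186 (721 kb) the gaps ran from 728 to 4091 kb, and the intervals to its left and right had medians over lists of 1.37 and 2.41 kb. In TSA they were longer, 189 and 386 kb in embryo 1.8 and 40.3 and 22.1 kb in embryo x17. The tightest gaps of the 10 longest were those at chr4:140650003-141323449 (673 kb), from 777 to 1333 kb, where an interval with a median length of 205 kb lay to the left. The others among the 10 longest were chr11:115823684-116548393 (725 kb), chr8:124380270-125082170 (702 kb), chr7:52522556-53164433 (642 kb), chr3:95461973-96079977 (618 kb), chr11:76053797-76662848 (609 kb) and chr16:24407883-25000452 (593 kb). When a base counted as called only if 2 or more lists called it, the stretches around these 10 grew to between 689 kb on chromosome 16 and 2634 kb for chr11:76053797-76662848.

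**Figure D3:**
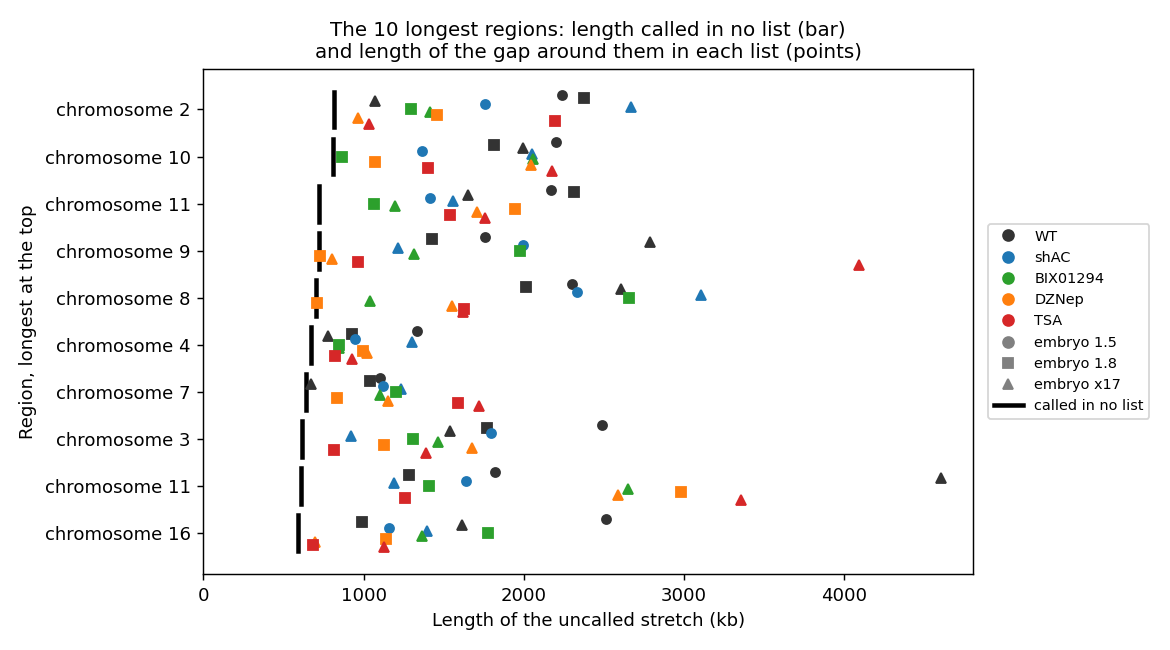
Each row is 1 of the 10 longest regions, with a black bar at its never-called length and a point for the gap around it in each of the 11 lists (x axis in kb, colour for treatment, shape for embryo). Gaps of single lists extend up to 4603 kb, and the order of the treatments changes from row to row.

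The edges of the regions were seldom shared between lists. Of 684 edges, 678, or 99.1%, were set by an interval of a single list, near the 96% over the edges of all never-called runs. The called stretch next to an edge came from 1 list only at 560 edges, or 81.9%, where the background over the edges of all never-called runs was 63.3%. It held intervals of all 11 lists at 21 edges, or 3.07%, against a background of 8.98%. All 11 lists had an interval within 25 kb at 3 edges, or 0.439%, and within 100 kb at 48, or 7.02%, where the edges of all runs gave 3.14% and 15%. No region had this within 25 kb on both sides. The rule chose long runs by these same positions, so nothing is read from the comparison. The list farthest from an edge stood a median of 784 kb away.

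The intervals that set the edges were mostly short. Over the 691 such intervals the median length was 2.83 kb, 21.3% were under 1 kb and 75.3% were under 10 kb, whereas 32 were over 100 kb. In 197 regions, 57.6%, both edges were set by intervals under 10 kb, and in none were both set by intervals over 100 kb. The TSA lists differed in this: their edge-setting intervals had medians of 10.7 kb in embryo 1.8 and 15.0 kb in embryo x17, against 1.38 to 4.00 kb in the other 9 lists. The number of edges that a list set ran from 33 for TSA embryo x17 and 36 for WT embryo 1.5 to 92 for WT embryo 1.8, without an order by treatment.

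The regions were about as far from LADs shared by all lists as the never-called runs of 100 to 200 kb were, and farther than shorter runs. Stretches over 100 kb called in all 11 lists numbered 2442 and summed to 942 Mb, and these mark the LADs found in every treatment. The median distance from a region to the nearest of them was 686 kb (quartiles 327 and 1279 kb), compared with 676 kb for the 882 runs of 100 to 200 kb, 618 kb for runs of 50 to 100 kb and 542 kb for runs of 20 to 50 kb. Of the 342 regions, 19 lay within 100 kb of such a LAD and 118 lay over 1 Mb away, 5.56% and 34.5%, near the 6.01% and 34.9% of the runs of 100 to 200 kb. The nearest was chr6:33198873-33690685, a 492 kb region and the longest of chromosome 6, which came within 17.8 kb.

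The distance to the first interval beyond an edge overlapped between the treatments. In WT the median distance over edges was 387, 169 and 213 kb in embryos 1.5, 1.8 and x17, a mean of 256 ± 116 kb (SD, n = 3). It was 220.0 and 262 kb in shAC (241 ± 29.5 kb, n = 2), 247 and 166 kb in BIX01294 (206 ± 57.3 kb), 204 and 184 kb in DZNep (194 ± 13.53 kb) and 208 and 358 kb in TSA (283 ± 106 kb). Every treated list fell within the range of the 3 WT lists except BIX01294 embryo x17, at 166 kb. The WT mean and spread were raised by embryo 1.5, which no drug shares, and without it the WT mean was 191 kb. Against the WT list of the same embryo, TSA lay farther in both embryos, by 39.7 kb in embryo 1.8 and 145 kb in embryo x17, while shAC, BIX01294 and DZNep each lay farther in one embryo and nearer in the other.

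The first interval beyond an edge was short in WT, shAC, BIX01294 and DZNep, and longer in TSA. Its median length was 18.9, 10.8 and 5.21 kb in the WT lists of embryos 1.5, 1.8 and x17, a mean of 11.6 ± 6.88 kb (SD, n = 3). It was 3.66 and 4.58 kb in shAC, 9.05 and 7.35 kb in BIX01294, 6.55 and 9.16 kb in DZNep, and 50.03 and 58.5 kb in TSA. The TSA lists stood above each of the other 9 lists, and both shAC lists below each WT list, while BIX01294 and DZNep overlapped WT. The far end of a flanking interval was itself the edge of another region, and so was used to choose the regions, at 38 of 7516 flanks. The near end set the edge of a region for 691 flanks. The length was tested over all flanks by a two-sided exact permutation of the list labels within each treatment and WT. The test thus drew in part on positions that chose the regions, and differences without the flanks that set an edge are given beside it.

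TSA exceeded WT by 42.6 kb in median flank length, with p = 0.1 in the exact permutation test and 0.4 after Benjamini-Hochberg adjustment over 4 treatments. With 3 lists against 2 there are 10 arrangements, so 0.1 is the smallest p that this design allows, and the arrangements do not keep lists of the same embryo together. Against the WT list of the same embryo, TSA was higher by 39.2 kb in embryo 1.8 and 53.3 kb in embryo x17, and shAC differed by -15.2 kb in embryo 1.5 and -0.621 kb in embryo x17. shAC differed from WT by -7.51 kb (exact permutation p = 0.2, adjusted 0.4), BIX01294 by -3.42 kb (exact permutation p = 0.7, adjusted 0.7) and DZNep by -3.77 kb (exact permutation p = 0.6, adjusted 0.7). These 3 differences rested in part on single WT lists: without WT embryo 1.5 they were -3.87, 0.209 and -0.139 kb, and without WT embryo x17 they were -10.7, -6.64 and -6.98 kb. The shAC difference turned to 9.30 kb with gaps under 25 kb joined and only LADs above 100 kb kept, and the DZNep difference to 0.591 kb in regions of 500 kb or longer. When the flanks that set an edge were left out, TSA minus WT was 47.6 kb, shAC -9.78 kb, BIX01294 -5.16 kb and DZNep -4.75 kb. Without the 38 flanks whose far end is an edge the TSA difference was 43.0 kb, and without the 178 edges that face another region within 500 kb it was 48.2 kb, each of the 3 TSA values with an exact permutation p of 0.1. The TSA difference was 12.7 kb with intervals under 5 kb ignored. It turned direction under other settings: with intervals under 10 kb ignored it was -18.5 kb, and with gaps under 25 kb joined and only LADs above 100 kb kept it was -78.9 kb. Of the flanking intervals, 36.2% ± 5.28 (SD, n = 2) were under 25 kb long in TSA and 61.2% ± 8.92 (SD, n = 3) in WT.

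The median flanking interval was shorter than the median of all intervals of the list, flanks included, in all 11 lists. An interval could count at more than 1 edge: 469 to 542 distinct intervals stood behind the 683 or 684 flanks of a list. The rule used the near ends of some of these intervals, and its part in their shortness was not tested. The median flank was 0.101 to 0.235 times the median of all intervals of the same list in the 9 lists without TSA, and 0.691 and 0.786 times in the TSA lists of embryos 1.8 and x17. It was also shorter than the intervals that bound the list's own gaps of 200 kb or more that held no region. For these the medians were 83.9 kb in WT embryo 1.5 and 9.68 to 26.4 kb in the other lists without TSA. They were 75.2 and 80.3 kb in the TSA lists of embryos 1.8 and x17. Both TSA lists thus stood above the WT list of the same embryo at these gaps too, though below WT embryo 1.5. The longer intervals of TSA against WT of the same embryo were therefore not confined to the flanks of the regions. The longest flanking interval in any list was 5688 kb, in WT embryo 1.5, before chr5:64482938-64767429. At that edge the lists ran down to 1.5 kb, with a median of 88.7 kb.

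When gaps under 25 kb were joined and LADs above 100 kb kept, the distances grew, as dropping shorter intervals can only lengthen them. No other never-called runs were set beside the regions for this distance. The median distance to such a LAD was 875, 612 and 795 kb in WT (761 ± 135 kb), 807 and 982 kb in shAC (894 ± 124 kb), 655 and 624 kb in BIX01294 (639 ± 22.1 kb), 718 and 666 kb in DZNep (692 ± 36.5 kb) and 494 and 655 kb in TSA (574 ± 114 kb). TSA lay below its own embryo's WT list in both embryos, with differences of -119 kb in embryo 1.8 and -140.3 kb in embryo x17. The TSA list of embryo x17 was nevertheless above the WT list of embryo 1.8, so the groups overlapped. The LADs reached were 384 ± 56.2 kb long in WT and 305 ± 14.9 kb in TSA.

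**Figure D4:**
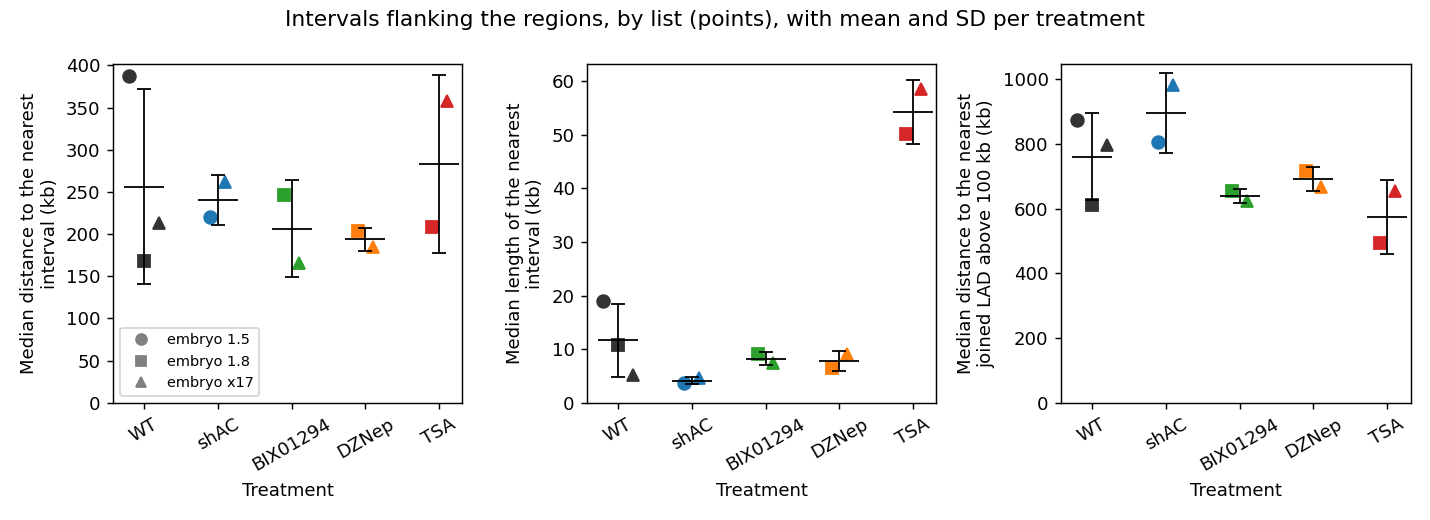
Points give, for each list, the median over the edges of the 342 regions of the distance to the nearest interval (left), the length of that interval (middle) and the distance to the nearest LAD above 100 kb after joining (right), all in kb, with the mean and SD of each treatment in black and a shape for each embryo. The TSA lists, at 50.03 and 58.5 kb, stand apart in the middle panel only.

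LAD coverage rose slowly with distance from a region. In WT it was 5.58% ± 2.25 (SD, n = 3) within 50 kb of an edge, 15.5% ± 3.49 at 100 to 200 kb and 37.1% ± 3.40 at 500 to 1000 kb, where the whole-span level was 60.4% ± 2.82. Within 50 kb it was 3.76% ± 0.873 in shAC, 7.14% ± 1.02 in BIX01294, 6.25% ± 0.590 in DZNep and 8.40% ± 2.81 in TSA (SD, n = 2 each). The shAC list of embryo 1.5, at 4.38%, lay within the WT range, as did both lists of BIX01294 and of DZNep. TSA embryo x17, at 6.41%, also lay within it. TSA embryo 1.8 was above that range, at 10.4%, and shAC embryo x17 below it, at 3.14%. At 500 to 1000 kb the treatments ran from 33.3% ± 3.18 in shAC to 40.1% ± 1.005 in BIX01294.

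Relative to whole-span coverage, TSA had the highest mean level at each distance from the regions. TSA had the lowest whole-span LAD coverage, 56.4% ± 1.51. Coverage at 500 to 1000 kb from the regions was 66.1% and 71.5% of that level in TSA, above 59.4% to 64.5% in WT. The coverage itself was close there: 41.1% and 36.6% in TSA embryos 1.8 and x17, against 40.9% and 36.0% in WT. The higher ratio at this distance thus came mostly from the lower whole-span level. At 200 to 500 kb the TSA ratios were 46.1% and 53.7%, also above the WT range of 38.3% to 45.7%. Within 50 kb they were 11.6% and 18.1%, which overlapped the WT range of 6.47% to 12.8%. Against WT of the same embryo they were higher in both, 18.1% against 12.8% in embryo 1.8 and 11.6% against 8.15% in embryo x17. These ratios were looked at after the coverage had been seen, and were not tested.

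**Figure D5:**
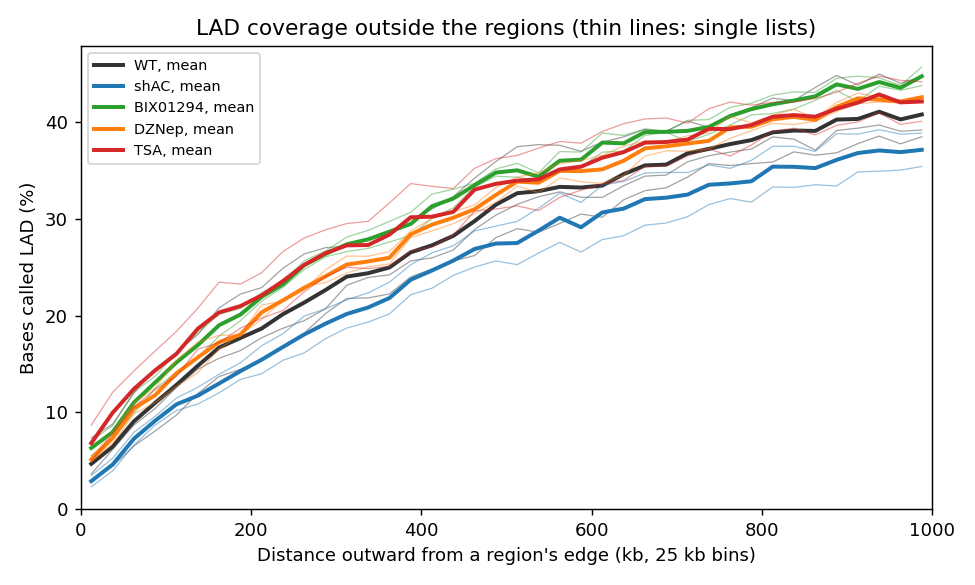
Lines give the percentage of bases called LAD in 25 kb bins outward from the edges of the 342 regions (x axis in kb), thick for the mean of a treatment and thin for single lists. Coverage climbs from under 10% at the edge to between 37% and 45% at 1000 kb for the treatment means, with shAC the lowest and the single lists of the treatments interleaved.

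Leaving out a list can only lengthen never-called runs, and the gain shows how much that list took away. Leaving out 1 list raised their number to between 359, without TSA embryo x17, and 407, without BIX01294 embryo x17, and their total length to between 109 and 124 Mb. The longest region then reached 1041 kb without shAC embryo 1.5. TSA embryo 1.8 called the most sequence that no other list called, 31.6 Mb, of which 3.98 Mb lay in what would otherwise have been regions, and its intervals there reached 191 kb. WT embryo x17 called the least alone, 6.46 Mb. Leaving out both lists of a treatment gave 424 regions without shAC, 428 without TSA, 454 without DZNep and 455 without BIX01294.

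Requiring 2 lists to agree leaves at least as much uncalled as leaving out any 1 list, so the larger totals here followed from the counting. Each further list required can only add to them. When a base counted as called only if at least 2 lists called it, 897 regions of 200 kb or more summed to 409 Mb. Of these, 279 held at least 1 of the 342, and the 342 lay in stretches with a median length of 679 kb. The stretch chr2:117392119-119862663 held 5 of them. Requiring at least 6 lists gave 1026 regions over 765 Mb, and requiring all 11 gave 1170 over 1165 Mb.

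Within embryos 1.8 and x17, which WT and each drug share, the lists of a single treatment left different amounts uncalled. The WT lists of these embryos left 1034 uncalled regions of 200 kb or more over 419 Mb, BIX01294 left 982 over 408 Mb and DZNep left 1102 over 449 Mb. TSA left 1411 over 665 Mb, with a median of 366 kb against 318 kb in WT. By the rule each of the 342 lies inside an uncalled gap of every treatment. The number of gaps that held one is therefore below 342 only where regions share a gap. It was 304 in WT, 292 in BIX01294, 301 in DZNep and 292 in TSA. These were 29.4%, 29.7%, 27.3% and 20.7% of the gaps of each, and nothing is read from their likeness. For embryos 1.5 and x17, WT left 1187 regions over 527 Mb and shAC left 1160 over 501 Mb. Each of these values rests on 1 pair of lists, so none carries an error.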

How the data were processed

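DamID-seq was measured in 22 libraries of primary MEFs, in 11 pairs of Dam fused to lamin B1 with its Dam-only reference. The authors segmented the ratio of the paired libraries with LADetector and deposited 1 interval list per pair, without pooling, on mm9 per the submitters' processing notes. The aligner is not given in the sources used here. Intervals carry no level or read number, so depth per library is unknown. The deposited lists hold intervals well under the 100 kb minimum of the stated methods, and were used as they stand, with joining under 25 kb and the 100 kb minimum as an alternative.

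Treatment, embryo and replicate number came from the labels, in which embryos 1.5 and 1.8 are replicate 1 and embryo x17 is replicate 2. Lists with the same embryo name were taken as 1 animal, which is the source of the pairing. Intervals of all lists were merged, and uncalled runs of at least 200 kb within each span were kept on chromosomes 1 to 19. The regions, and the choice of what to describe, were made with earlier results of these data known. Named regions are the 10 longest, the 3 on either side of the length limit, the one with the longest flanking interval, those nearest to a span's ends, and the longest of a chromosome. Close pairs, the densest window, the stretches called in 1 list only and the region nearest to a shared LAD were chosen after their values were seen. Flanking length was compared by the difference of the means of list medians with a two-sided exact permutation test. No test across genes or sites was run. Replicates are separate embryos where names differ, and p-values measure the spread between these lists. The alternatives were the minimum length, joining, the number of lists needed, lists left out, the mean over edges, longer regions, the replicate block and, added after seeing the data, short intervals ignored, flanks near another region or at an edge left out and single lists left out of the distances. Gene content, sequence and the signal tracks were not analysed here, since the tables of gene positions at hand are in another build. Interval arithmetic was tested on simulated data. Python 3.11.15, numpy 2.4.6, scipy 1.17.1 and matplotlib 3.10.9 were used.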

Additional observations from a re-analysis of the deposited data

Results flagged for a closer look

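Each result here had opposite signs in the embryos of a treatment when set against the WT list of the same embryo, and the difference between embryos was not tested. The median distance from a region's edge to the nearest interval changed by -167 kb under shAC in embryo 1.5 and by 48.9 kb in embryo x17. Under BIX01294 it changed by 78.3 kb in embryo 1.8 and by -47.0 kb in embryo x17, and under DZNep by 35.0 kb and -28.4 kb. The median length of the flanking interval changed by -1.73 kb under BIX01294 in embryo 1.8 and by 2.15 kb in embryo x17, and under DZNep by -4.24 kb and 3.96 kb. Each value compares 1 list with 1 list.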

How the results depend on the processing

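The 12 results were recomputed under 141 alternatives, beside 11 distances with 1 list left out, which could not move by 1 SD. Of the 141 values 106 kept their direction (flanking length, whose p cannot go below 0.1 and so cannot change sides) or stayed within 1.5 times for a number or length and within 1 SD for a distance, 29 moved further and 6 turned direction. Some of the 106 could not move either: the values with joining alone, and the longest region at a minimum of 100 or 500 kb. Each value of the replicate block also equals one with a WT list left out. That list is embryo 1.8 for shAC and embryo 1.5 for BIX01294, DZNep and TSA, so the BIX01294 turn is counted again among the 6. The number and length of regions rest on single lists and short intervals, and depth limits are unknown. A minimum of 100 kb gave 1224 regions over 225 Mb and 500 kb gave 19 over 11.8 Mb, and 1000 kb left no region. With gaps under 25 kb joined and LADs above 100 kb kept there were 868 regions over 589 Mb, the longest 4779 kb; joining alone leaves runs of 200 kb as they are. Counting bases called in at least 2 lists gave 897 regions, 409 Mb and 2634 kb, and the 3 WT lists alone gave 997, 381 Mb and 1802 kb. Ignoring intervals under 5 kb, a choice made after seeing the data, gave 698 regions, 260 Mb and 1464 kb, and under 10 kb 833, 344 Mb and 2219 kb. Leaving out 1 list, which can only add sequence, gave 359 to 407 regions, 109 to 124 Mb and a longest region of 818 to 1041 kb.

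Flanking length of shAC minus WT turned to 9.30 kb after joining and filtering, and TSA minus WT to -78.9 kb, and to -18.5 kb with intervals under 10 kb ignored. DZNep minus WT turned to 0.591 kb in regions of 500 kb or longer. In the replicate block, which pairs lists of the same embryo, BIX01294 minus WT turned to 0.209 kb, and without a single list it ran from -6.64 to 0.209 kb, the latter without WT embryo 1.5. The block turned no other treatment, but DZNep minus WT shrank to -0.139 kb in it. Other differences kept their direction but not their size: shAC, BIX01294 and DZNep minus WT were -65.0, -54.3 and -50.3 kb as means over edges, where TSA was 54.5 kb, and the 4 were -31.3, -22.9, -31.7 and 12.7 kb with intervals under 5 kb ignored. With intervals under 10 kb ignored the first 3 were -55.9, -29.8 and -53.6 kb. Without a single list, shAC minus WT ran from -10.7 to -3.87 kb, DZNep minus WT from -6.98 to -0.139 kb and TSA minus WT from 38.4 to 46.9 kb. Median distances in WT, shAC, BIX01294, DZNep and TSA became 761, 894, 639, 692 and 574 kb after joining and filtering, and 427, 392, 371, 322 and 438 kb as means over edges. Without WT embryo 1.5 the WT distance was 191 kb. The cause of these moves was not tested.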
